A study of Mus musculus with 4 samples.

Results

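The genes that encode voltage-gated calcium channels, voltage-gated sodium channels and potassium channels were followed across the cell types of the mouse pituitary gland and between 2 diets. They were chosen by symbol alone. A gene was taken if its symbol began with Cacna, with Cacnb or Cacng and a digit, with Kcn and a letter and digit, or with Kcnma or Kcnmb, or if it was Scn with a number and a closing a or b, and symbols ending in os were left out. This gave 129 of the 32285 genes in the count matrices. By family they were 10 calcium channel pore genes (Cacna1), 4 alpha2delta genes (Cacna2d), 4 beta genes (Cacnb), 8 gamma genes (Cacng), 10 sodium channel pore genes, 4 sodium channel beta genes, 40 voltage-gated potassium channel genes, 5 Kcne accessory genes, 15 inward rectifier genes (Kcnj), 14 tandem-pore potassium channel genes (Kcnk) and 12 genes of calcium- and sodium-activated potassium channels. The remaining 3 names, Kcnq1ot1, Kcnmb4os1 and Kcnmb4os2, are antisense RNAs of channel genes and encode no channel.

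RNA was counted cell by cell (10x Genomics Chromium 3' v3.1) in whole pituitary glands of wild-type C57BL/6J males. For 12 weeks the mice were fed either control chow, abbreviated CTRL, or high-fat food, abbreviated HFD. Each diet had 2 libraries, CTRL 1, CTRL 2, HFD 1 and HFD 2. All glands were digested with collagenase and trypsin. The labels do not give the number of glands in a library or say that libraries of 1 diet came from different animals, so each p-value is set against a spread between libraries that may be technical in part or in full.

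Hormone cells of the anterior pituitary are electrically excitable. Their action potentials open voltage-gated calcium channels, the calcium that enters drives hormone release, and potassium channels set the resting potential and end each spike or burst. Calcium channel pores assemble with alpha2delta and beta subunits that govern their number at the membrane and their gating, sodium channel pores assemble with beta subunits, and tandem-pore potassium channels carry a background leak current. Large-conductance calcium-activated potassium channels (pore gene Kcnma1, accessory genes Kcnmb) are known for prolonging bursts in somatotropes and lactotropes.

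After filters and removal of putative doublets, 25680 cells were kept (4350 to 7498 a library), with between 65152947 and 92192522 UMIs (unique molecular identifiers, one per captured RNA molecule) a library. The cells were clustered without the 129 genes, so that no channel gene could shape a class, and 24 of 27 clusters were named from marker genes. The names end in "-like" because they rest on RNA alone. The 10 classes with at least 30 cells in every library were somatotrope-like (8680 cells), lactotrope-like (5393), corticotrope-like (2492), melanotrope-like (1997), endothelial-like (1170), mesenchymal-like (474), macrophage-like (467), gonadotrope-like (1435), thyrotrope-like (495) and stem-like cells (1652). Pituicyte-like cells (218, the glia of the posterior lobe) and pericyte-like cells (127) had 22 and 21 cells in CTRL 1 and were described only. Each of these 12 classes held RNA of its own markers, and the thyrotrope list alone had a marker at 0 in its own class (1 of 5). A cluster of 427 cells whose leading genes matched no class stayed unnamed and is given beside results where it stood higher.

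HFD 1 stood apart. Its median gonadotrope-like cell held 1692 UMIs against 24545 to 31646 in the other libraries, and its median melanotrope-like, thyrotrope-like, stem-like and pituicyte-like cells held 1359 to 2062. HFD 1 shared 1322 cell barcodes with HFD 2, which was 17.6% of the cells of HFD 1, and 95.1% of the shared barcodes had the same class in both libraries against 19.1% over all pairs of cells. The copies in HFD 1 held a median of 5.65% of the UMIs of the copies in HFD 2. HFD 1 also shared 282 barcodes with CTRL 2, and every other pair of libraries shared 8 to 14. The shallower copies made up 64.7% of the gonadotrope-like cells of HFD 1 but 12.3% of that class's UMIs. They were 10.1% of its lactotrope-like cells and 1.47% of their UMIs. Results were therefore also computed after keeping only the copy with the most UMIs of each shared barcode.

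Channel RNA was detected for 127 of the 129 genes. Kcnk15 and Kcnk16 had no UMI in any kept cell, which allows a level of up to 0.00909 CPM (UMIs of a gene after scaling the class or gland to 1000000 UMIs, from the 3 UMIs that a count of 0 allows). Of the 129 genes, 57 reached at least 10 CPM in every library of some tested class and 72 did not. Levels below are CPM of UMIs summed over the cells of a class in 1 library. Because 3' counts were not scaled by transcript length or capture, each gene is compared between classes and not with other genes. The classes come from the same cells, so differences between them are described and not tested.

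Summed over the 126 channel-coding genes, RNA was highest among tested classes in stem-like cells, at 2083 ± 167 CPM (mean ± SD, n = 4 libraries). The 6 hormone classes ran from 1271 ± 7.41 CPM in thyrotrope-like to 1648 ± 103 CPM in corticotrope-like cells. Mesenchymal-like cells reached 739 ± 82.5 CPM, endothelial-like cells 684 ± 73.7 CPM and macrophage-like cells 304 ± 27.4 CPM. The lead of stem-like cells rested on 1 family and mostly on 1 gene of it, Kcnk1. Tandem-pore channels made up 1294 ± 152 CPM there and 108 ± 5.36 CPM in melanotrope-like cells, the lowest of the hormone classes. Outside the tested classes pituicyte-like cells reached 2311 ± 191 CPM, of which sodium channel pores made up 1465 ± 142 CPM.

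**Figure D1:**
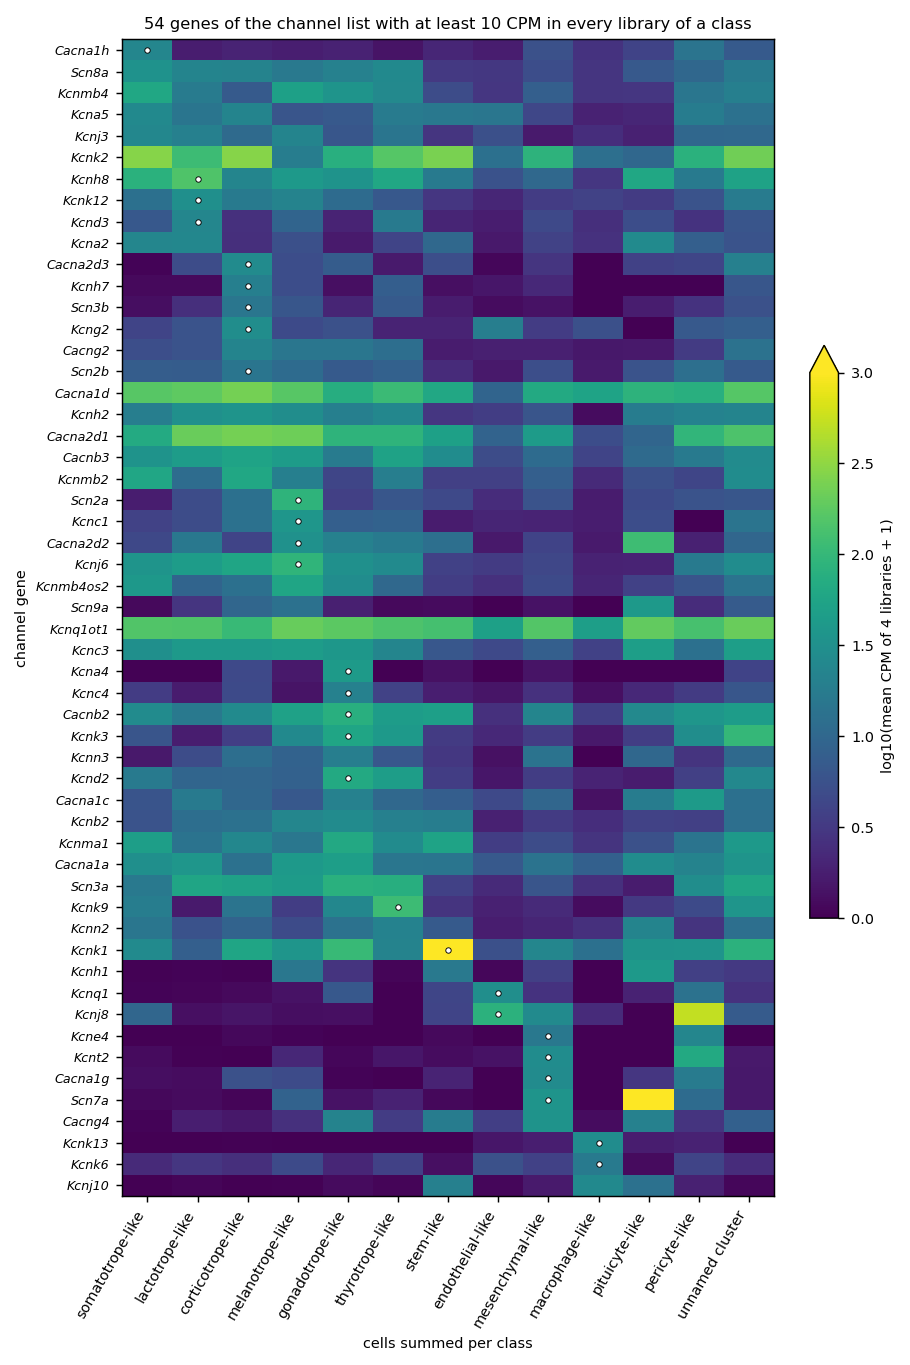
Heat map of 54 of the 57 genes of the channel list with at least 10 CPM in every library of a tested class (rows) across the 10 tested classes, pituicyte-like and pericyte-like cells and the unnamed cluster (columns). Colour gives log10 of the mean CPM of 4 libraries plus 1, capped at 1000 CPM, and white dots mark genes whose libraries in 1 tested class all lie above those of every other. Some genes were high in 1 tested class, such as Kcnk1 in stem-like and Kcna4 in gonadotrope-like cells, and others, such as Cacna1d, were spread over all hormone classes.

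A gene was counted as standing above all other classes when its lowest library in 1 class, at 10 CPM or more, exceeded every library of every other tested class. Of the 57 genes, 30 did so (52.6%), against 42.7% of the 11755 genes of the transcriptome that reached 10 CPM. Tandem-pore channels contributed 6 of 7 and voltage-gated potassium channels 11 of 17, whereas none of the 2 gamma genes and 1 of 6 calcium- and sodium-activated potassium channel genes did so. Corticotrope-like cells held 5 such genes (4.49% of the 11755 genes led there), gonadotrope-like cells 5 (3.49%) and melanotrope-like cells 5 (2.07%). Mesenchymal-like cells held 4 (4.3%), lactotrope-like cells 3 (1.4%), endothelial-like cells 3 (10.2%) and macrophage-like cells 2 (7.25%). Somatotrope-like cells (0.587%), stem-like cells (6.9%) and thyrotrope-like cells (1.95%) held 1 each. For 6 of the 30 genes a class too small to be tested, or the unnamed cluster, stood higher still. Hormone genes take up much of the RNA of hormone cells, between 34.9% and 44.0% of the UMIs of somatotrope-like cells. With the hormone genes left out of the totals, 29 of the 30 genes still stood above all other classes and 49 of 57 genes kept the same highest class, and the gene lost was Scn2b.

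Among calcium channel pores, Cacna1d, which encodes an L-type channel that opens at fairly negative potentials, was broadly present. Its mean was 236 CPM in corticotrope-like, 177 CPM in lactotrope-like, 166 CPM in melanotrope-like, 163 CPM in somatotrope-like, 109 CPM in thyrotrope-like and 73.9 CPM in gonadotrope-like cells. The libraries of the neighbouring classes in this order overlapped among corticotrope-like, lactotrope-like, melanotrope-like and somatotrope-like cells. Outside the hormone classes, endothelial-like cells had a mean of 8.37 CPM. Libraries ran from 41.8 to 57.6 CPM in macrophage-like cells and from 114 to 197 CPM in the unnamed cluster. Cacna1a and Cacna1c, pores of P/Q-type and L-type channels, had their highest means in gonadotrope-like cells at 47.4 and 19.7 CPM. For each gene the libraries overlapped those of lactotrope-like cells. Both T-type pores that reached 10 CPM were confined to a narrower range. Cacna1h had 16.3, 21.7, 29.5 and 23.6 CPM in somatotrope-like cells of CTRL 1, CTRL 2, HFD 1 and HFD 2, the order used throughout. All 4 libraries lay above the 6.62 CPM that was the highest library of any other tested class. Cacna1g had 24.6, 23.5, 21.5 and 38.1 CPM in mesenchymal-like cells, against at most 6.38 CPM elsewhere.

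The alpha2delta genes, whose products raise the number of calcium channels at the membrane, divided the classes differently. Cacna2d1 was the largest contributor to the family sum in corticotrope-like (238 CPM), melanotrope-like (215 CPM) and lactotrope-like cells (204 CPM), and stood at 67.5 CPM in somatotrope-like cells. Cacna2d3 had 32.4, 23.7, 27.0 and 25.7 CPM in corticotrope-like cells and a mean of 6.39 CPM in gonadotrope-like cells, the next class. The groups of libraries did not overlap. Cacna2d2 had 29.6, 35.4, 34.4 and 28.3 CPM in melanotrope-like cells and 19.98 CPM in gonadotrope-like cells, but pituicyte-like cells held 116 CPM. Among beta genes, which bind the pore from inside the cell and set its gating, Cacnb2 was highest in gonadotrope-like cells, with 84.9, 72.6, 74.5 and 73.0 CPM against 51.2 CPM in melanotrope-like cells. Lactotrope-like cells had the lowest Cacnb2 of the hormone classes, at 15.1 CPM. Cacnb3 ran from 16.9 CPM in gonadotrope-like to 53.5 CPM in corticotrope-like cells, with thyrotrope-like cells at 52.4 CPM. Cacnb4 stood at 96.2 CPM in pituicyte-like cells and at most 9.62 CPM in the tested classes.

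The gamma family, relatives of the muscle calcium channel gamma subunit of which several are better known as partners of glutamate receptors, was low. Cacng2 was highest in corticotrope-like cells (21.7 CPM) and Cacng4 in mesenchymal-like cells (33.7 CPM), each with libraries that overlapped another class.

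Among sodium channel pores, which carry the fast upstroke of the action potential, Scn2a stood above all other classes in 1 class. Melanotrope-like cells had 68.4, 103, 92.7 and 93.4 CPM, and corticotrope-like cells, which share the precursor hormone Pomc with them, had a mean of 11.7 CPM. The lowest melanotrope-like library was above the highest library of every other tested class (17.1 CPM). Scn3a was highest in gonadotrope-like (80.0 CPM) and thyrotrope-like cells (75.8 CPM), whose libraries overlapped, and lowest of the hormone classes in somatotrope-like cells (15.5 CPM). Scn8a had its highest mean in somatotrope-like cells, at 32.7 CPM. Scn7a, which encodes an atypical sodium channel known as a sensor of extracellular sodium, was highest in pituicyte-like cells. It reached 1251, 1463, 1599.7 and 1340.0 CPM there. Mesenchymal-like cells had 14.8, 40.9, 33.1 and 48.6 CPM, and the other tested classes had means of at most 7.80 CPM.

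Among sodium channel beta genes, Scn3b, with 18.0, 13.7, 13.8 and 10.4 CPM, and Scn2b, with 14.6, 13.1, 14.2 and 13.1 CPM, stood above all other classes in corticotrope-like cells. The lead of Scn2b over melanotrope-like cells (10.3 CPM) was small.

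Voltage-gated potassium channel genes led in most hormone classes, but not in somatotrope-like or thyrotrope-like cells. Kcnh8, a gene of the slowly gated Elk group, had 142, 155, 151 and 138 CPM in lactotrope-like cells. Somatotrope-like cells, the next class, had 81.9 CPM and no library above 89.4 CPM. Kcna4, which encodes a rapidly inactivating A-type channel, had 37.2, 53.2, 36.2 and 42.8 CPM in gonadotrope-like cells and at most 4.54 CPM in any library of another tested class. Kcnc4 was also a gonadotrope-like gene, with 19.1, 20.8, 20.5 and 18.7 CPM against 3.69 CPM in corticotrope-like cells, as was Kcnd2 with a mean of 64.7 CPM against 46.4 CPM in thyrotrope-like cells. Melanotrope-like cells led for Kcnc1, a fast delayed rectifier gene, with 38.2, 40.2, 32.5 and 37.5 CPM against 12.0 CPM in corticotrope-like cells. Kcnh7 (18.8 CPM) and Kcng2 (28.6 CPM) led in corticotrope-like cells and Kcnd3 (23.1 CPM) in lactotrope-like cells.

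Outside the hormone cells, endothelial-like cells led for Kcnq1, with 31.2, 30.2, 28.7 and 26.0 CPM against 5.70 CPM in gonadotrope-like cells. Kcnq1 overlaps its antisense RNA Kcnq1ot1, and whether counting used the strand is not given in the sources used here, so reads of the pair may be mixed. Kcnq1ot1 itself was spread over all tested classes, from 46.9 CPM in macrophage-like to 200 CPM in melanotrope-like cells, and its level was lowest in endothelial-like and macrophage-like cells. The unnamed cluster had 145, 197, 230 and 249 CPM.

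Among inward rectifiers, Kcnj8, the pore of a vascular ATP-sensitive potassium channel, stood at 416, 594, 521 and 601 CPM in pericyte-like cells. Endothelial-like cells had 82.7, 59.6, 79.8 and 115 CPM, above all other tested classes and below every pericyte-like library. Kcnj6, a pore of G protein-gated channels, led in melanotrope-like cells with 79.4, 96.1, 102 and 82.3 CPM against 57.2 CPM in corticotrope-like cells. Kcnj11, the pore of the ATP-sensitive channel of the pancreatic beta cell, had its highest mean among tested classes in somatotrope-like cells, at 6.71 CPM.

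Tandem-pore channels gave some of the widest class differences. Kcnk1 had 856, 1085, 981 and 1207 CPM in stem-like cells, and 105 CPM in gonadotrope-like cells, the next class. Kcnk9, whose product is an acid-sensitive leak channel, had 91.2, 142, 121 and 94.6 CPM in thyrotrope-like cells, and 23.7 CPM in gonadotrope-like cells. Kcnk13 had 34.0, 30.3, 27.0 and 20.4 CPM in macrophage-like cells, a cell type in which its channel is known from microglia, and at most 1.65 CPM in any library of another tested class. Each of these genes was separated from every other tested class in all libraries. Kcnk2, which encodes a leak channel opened by stretch and lipids, was instead shared by several classes. It had 287 CPM in somatotrope-like, 281 CPM in corticotrope-like, 246 CPM in stem-like and 160 CPM in thyrotrope-like cells, then 113 CPM in lactotrope-like, 76.5 CPM in gonadotrope-like and 17.7 CPM in melanotrope-like cells. The libraries of somatotrope-like, corticotrope-like and stem-like cells overlapped. Kcnk12 led in lactotrope-like cells (30.4 CPM) and Kcnk6 in macrophage-like cells (16.3 CPM). Kcnk3 led in gonadotrope-like cells (57.0 CPM), but the unnamed cluster held 99.9 CPM.

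For the large-conductance calcium-activated potassium channel, the pore gene and the accessory genes each differed in level between classes. Kcnma1 was highest in gonadotrope-like (63.5 CPM) and stem-like cells (54.1 CPM), with 47.0 CPM in somatotrope-like and 12.8 CPM in lactotrope-like cells. Kcnmb2, whose product inactivates the channel, had 59.6 CPM in corticotrope-like, 58.4 CPM in somatotrope-like and 3.21 CPM in gonadotrope-like cells. Kcnmb4, whose product slows the channel, had 60.9 CPM in somatotrope-like and 6.02 CPM in corticotrope-like cells. Kcnmb4 shares its locus with the antisense RNAs Kcnmb4os1 and Kcnmb4os2, so its counts are uncertain in the same way as those of Kcnq1. Mesenchymal-like cells led among tested classes for Kcnt2, a sodium-activated channel gene, at 27.5 CPM, and for the accessory gene Kcne4 at 14.9 CPM, and pericyte-like cells held 65.4 and 22.8 CPM.

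**Figure D2:**
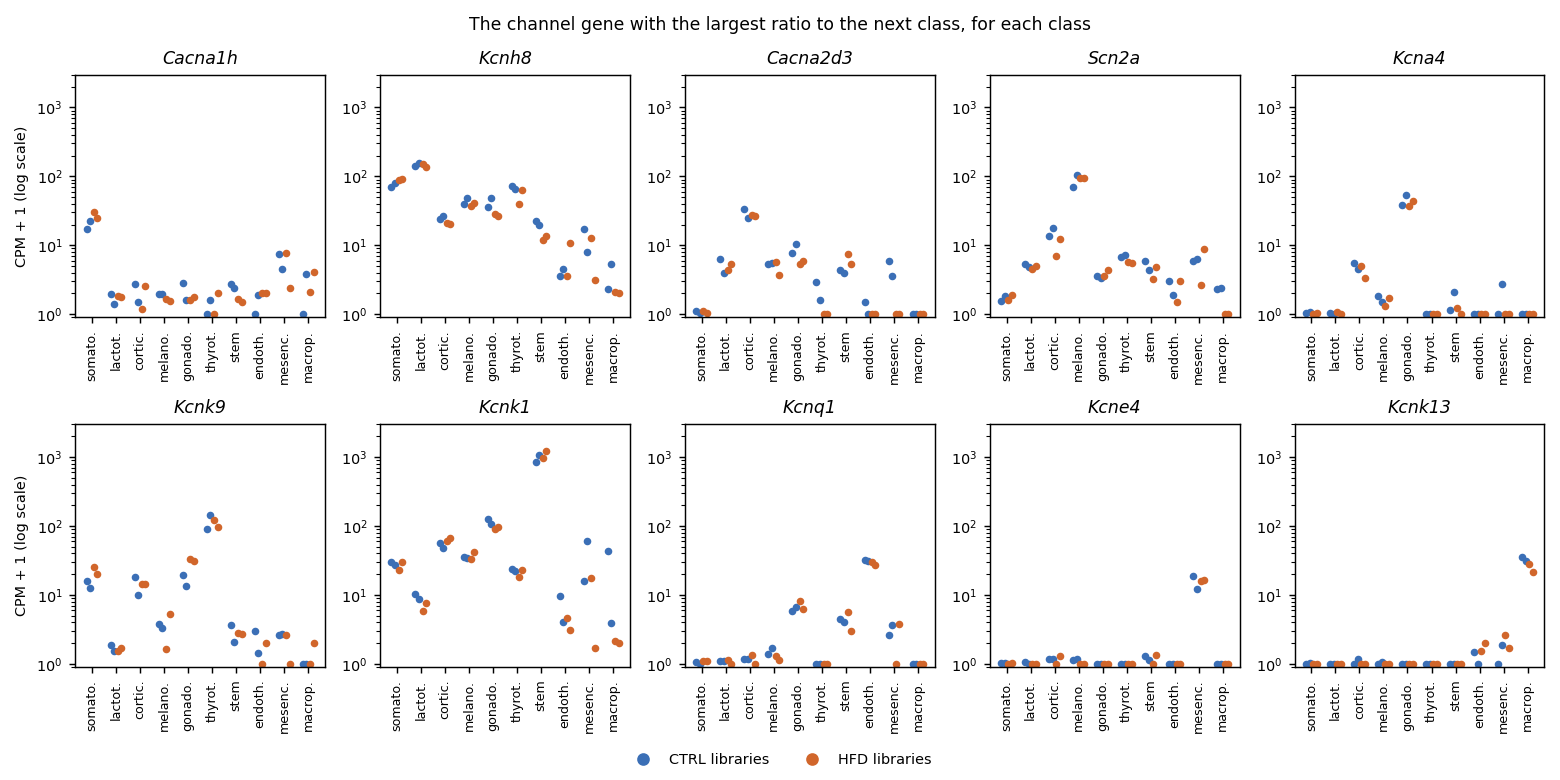
CPM plus 1 (log scale) in every library (points) across the 10 tested classes, for the channel gene of each class with the largest ratio to the next class, with CTRL and HFD libraries in separate colours. For each gene the 4 points of its class lie above all points of the other tested classes, as the rule that chose the genes required.

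For the leading genes, the share of cells with a UMI was set against that in 1 background class after thinning cells to 2000 UMIs and leaving out shallower cells. Thinning left out 440 of 1435 gonadotrope-like cells and 243 of 8680 somatotrope-like cells. Kcnk1 was detected in 73.4% of stem-like cells, from 67.3% to 79.2% between libraries, and in 0.368% of endothelial-like cells. Kcnh8 was detected in 26.5% of lactotrope-like cells (23.3% to 28.5%) and also in 0.368% of endothelial-like cells. Kcnk9 was found in 19.5% of thyrotrope-like cells (16.6% to 24.7%) against 0.184%, and Scn2a in 17.4% of melanotrope-like cells (14.2% to 20.5%) against 0.0921%. These genes were chosen as above all other tested classes, endothelial-like cells included. A lower share in endothelial-like cells therefore followed from the choice and is given as a description only. Kcna4 was detected in 7.44% of gonadotrope-like cells, Cacna1h in 4.91% of somatotrope-like cells and Cacna2d3 in 4.85% of corticotrope-like cells, and none was seen in 1086 endothelial-like cells, which allows up to 0.276%. At full depth the shares were higher, such as 61.2% for Scn2a and 24.5% for Cacna1h. The endothelial-like shares at full depth were 0.769% and 0.513%, with a median of 4473 to 6613 UMIs a cell. Scn7a was detected in 85.0% of thinned pituicyte-like cells against 0.0474% of somatotrope-like cells. Kcnj8 was detected in 59.5% of thinned pericyte-like cells, and in 1.65% of somatotrope-like cells.

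The promoters of the leading gene of 5 classes are shown because these genes were each highest in 1 class in all 4 libraries. Each sequence is the 250 bases before the RefSeq start site on the gene's strand (GRCm38.p6), 5′ to 3′, and capitals mark matches to the motifs searched. Kcnh8 (lactotrope-like) spans chr17:52602459-52602708 on the plus strand, and an exon of an antisense RNA of GENCODE overlaps it. Cacna2d3 (corticotrope-like) spans chr14:29721865-29722114 on the minus strand. Scn2a (melanotrope-like) spans chr2:65620519-65620768, Kcna4 (gonadotrope-like) chr2:107290339-107290588 and Kcnk1 (stem-like) chr8:125994852-125995101, all on the plus strand.
Kcnh8: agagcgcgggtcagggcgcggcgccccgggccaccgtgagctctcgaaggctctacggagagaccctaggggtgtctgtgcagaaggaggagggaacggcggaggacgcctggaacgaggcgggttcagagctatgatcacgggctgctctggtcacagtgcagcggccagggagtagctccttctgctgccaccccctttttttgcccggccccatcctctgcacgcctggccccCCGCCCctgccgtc
Cacna2d3: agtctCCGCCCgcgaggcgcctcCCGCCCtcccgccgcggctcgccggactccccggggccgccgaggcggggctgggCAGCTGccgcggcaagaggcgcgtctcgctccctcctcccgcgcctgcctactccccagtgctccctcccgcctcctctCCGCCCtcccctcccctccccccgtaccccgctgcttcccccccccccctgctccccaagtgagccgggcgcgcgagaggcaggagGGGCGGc
Scn2a: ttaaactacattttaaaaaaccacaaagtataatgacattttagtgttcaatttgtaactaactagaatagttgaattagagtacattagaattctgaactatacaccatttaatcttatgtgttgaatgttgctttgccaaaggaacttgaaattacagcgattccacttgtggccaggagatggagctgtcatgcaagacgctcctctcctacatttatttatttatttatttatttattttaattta
Kcna4: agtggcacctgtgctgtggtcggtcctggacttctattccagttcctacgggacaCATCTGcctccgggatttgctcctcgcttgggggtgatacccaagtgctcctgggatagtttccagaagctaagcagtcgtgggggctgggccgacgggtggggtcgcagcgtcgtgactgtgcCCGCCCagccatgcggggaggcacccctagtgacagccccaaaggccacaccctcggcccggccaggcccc
Kcnk1: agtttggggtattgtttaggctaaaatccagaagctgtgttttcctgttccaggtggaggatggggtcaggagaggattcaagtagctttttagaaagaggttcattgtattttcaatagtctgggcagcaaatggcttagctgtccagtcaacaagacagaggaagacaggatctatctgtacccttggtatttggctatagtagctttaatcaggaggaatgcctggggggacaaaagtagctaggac

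The sequences differed widely in base composition. The share of G and C was 80.0% in the Cacna2d3 window, 68.4% in Kcnh8, 65.2% in Kcna4, 44.4% in Kcnk1 and 29.6% in Scn2a. The motifs searched on both strands were GGGCGG (GC box), CAGCTG and CAGATG (E-boxes), TATAAA, TGACGTCA (cAMP response element), TGANTCA (AP-1), TATNCAT (the core recognised by Pou1f1, the pituitary lineage factor of somatotropes, lactotropes and thyrotropes), AAGGTCA (Nr5a1 and related receptors) and TTCAGCACC (part of the element bound by REST). Positions are counted back from the start site, with -1 as the last base before it. GGGCGG was found at -14 in Kcnh8, at -71 in Kcna4 and at -245, -227, -93 and -7 in Cacna2d3. CAGCTG was found at -172 in Cacna2d3 and CAGATG at -195 in Kcna4. The windows of Scn2a and Kcnk1 held none of these letters. Over 32851 RefSeq windows of the same length, GGGCGG was in 32.7%, CAGCTG in 13.0%, CAGATG in 14.4%, TATAAA in 12.4%, TATNCAT in 7.92%, TGANTCA in 6.75%, AAGGTCA in 4.08%, TGACGTCA in 1.55% and TTCAGCACC in 0.301%. Windows were matched for 94 of the 129 genes (121 windows), of which 43.8% held GGGCGG, 25.6% CAGCTG, 12.4% CAGATG, 4.13% TATAAA, 2.48% TATNCAT, 2.48% TGANTCA, 4.13% AAGGTCA, 0.826% TTCAGCACC and none TGACGTCA. Their share was above that of all windows for the GC box and CAGCTG, and below it for CAGATG and the TATA, Pou1f1, AP-1 and cAMP response motifs. AAGGTCA and TTCAGCACC were in 5 windows and 1 window. Their median share of G and C was 58.4% against 52.4% over all windows.

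The diets were compared by edgeR's quasi-likelihood test on UMI counts summed per class and library, with Benjamini-Hochberg adjustment over all genes of a class and n = 2 libraries a diet. In the tested classes 107 of the 129 genes passed the low-count filter in at least 1 class, in 458 tests in all, and 22 passed in none. At an adjusted p under 0.05, 3 tests were called: Cacnb2 was lower and Cacng3 higher after HFD in lactotrope-like cells, and Kcnk9 was higher in gonadotrope-like cells. Without TMM scaling (the correction for differing RNA composition) 6 were called, with 2 higher and 4 lower in place of 2 higher and 1 lower. The count depended on single libraries, being 10 with either CTRL library left out, 1 with HFD 1 left out and 21 with HFD 2 left out. The share of all genes called in these alternative fits is not given, so their counts do not speak to channel genes in particular. In the main fits no other tested class had a call among these genes.

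In lactotrope-like cells 2 of 71 genes tested were called, against 1.12% of 13778 genes in that class. At an unadjusted p under 0.05 there were 20, with 11 higher and 9 lower, against 11.0% of all genes, and DESeq2 called Cacnb2 and Kcnk2 as lower (background 1.09%). Cacnb2, the calcium channel beta gene (chr2:14603088-14987908 in mm10), had 20.03 and 18.3 CPM in CTRL 1 and CTRL 2 and 11.3 and 10.9 CPM in HFD 1 and HFD 2. Both HFD libraries were lower than both CTRL libraries, with 145 to 429 UMIs behind each value. The log2 difference, HFD minus CTRL, was -0.84 (SE 0.14, edgeR adjusted p 0.0147). It was called in all 4 fits that left out 1 library, by DESeq2, and without shared barcodes (-0.85, adjusted p 0.0134). Both larger lactotrope-like clusters were also fitted alone. The log2 difference was -0.88 (SE 0.17, adjusted p 0.0194) in 1 of them, where 1.19% of all genes were called. In the other it was -0.72 (SE 0.20, adjusted p 0.170), also lower after HFD but not called, and none of 58 channel genes tested was called there (background 0.396%). Gonadotrope-like cells hold the most Cacnb2. Their 7 markers, all detected, summed to 328 and 151 CPM in CTRL and 216 and 350 CPM in HFD lactotrope-like cells, so the diets overlapped. Immediate-early genes rise within minutes of cell stimulation or stress. Of the 26 listed as such, 2 fell in this class, Fosb and Rasd1, and Rasd1 is also a glucocorticoid target. The 26 genes summed to 7412 and 8253 CPM in CTRL and 7036 and 6209 CPM in HFD. Their part in the result was not tested.

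Cacng3 (chr7:122670492-122769393), a gamma gene, was rare. It had 8, 14, 34 and 25 UMIs in the lactotrope-like cells of the 4 libraries, or 0.480, 0.596, 2.62 and 1.88 CPM. Both HFD libraries were above both CTRL libraries, 1.98 apart on the log2 scale (SE 0.39, adjusted p 0.0339 by edgeR). The call was lost without CTRL 1 (adjusted p 0.117), without CTRL 2 (0.192), without HFD 1 (0.134) and with DESeq2 (adjusted p 0.131). Without shared barcodes it was 1.99 (adjusted p 0.0331).

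In gonadotrope-like cells 1 of 61 genes tested was called, against 2.2% of 12589 genes. At an unadjusted p under 0.05 there were 11, with 4 higher and 7 lower, against 22.4% of all genes. DESeq2 called none of them, and 4.67% of the 4779 genes to which it gave an adjusted p. Genes without an adjusted p could not be called. Kcnk9 (chr15:72501089-72546340) had 18.8 and 12.6 CPM in CTRL and 32.8 and 30.5 CPM in HFD. The diets did not overlap, and the log2 difference was 1.11 (SE 0.17, edgeR adjusted p 0.0208). It was lost without HFD 1 (adjusted p 0.0668) and without HFD 2 (0.0865), and DESeq2 gave no adjusted p for it. Without shared barcodes it was 1.14 (adjusted p 0.0139). In thyrotrope-like cells, where Kcnk9 was highest, the log2 difference was -0.11 (SE 0.16, adjusted p 0.934). The 5 thyrotrope markers were all detected in gonadotrope-like cells, and of these Trhr had 1, 1, 0 and 3 UMIs. Tshb, the thyrotropin gene, had 59.8 and 20.2 CPM in CTRL and 24.8 and 60.3 CPM in HFD, so the diets overlapped. The whole list summed to 132029 and 150719 CPM in CTRL and 190162 and 182374 CPM in HFD, nearly all of it Cga, which gonadotropes also make. Markers of lactotropes moved with diet in this class, at 4469 and 5931 CPM in CTRL and 781 and 1588 CPM in HFD for all 5 genes together. So did the immediate-early genes, of which 16 of 25 tested fell, with a median log2 difference of -0.88 against 0.00 over all genes. The part of these in the Kcnk9 difference was not tested.

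**Figure D3:**
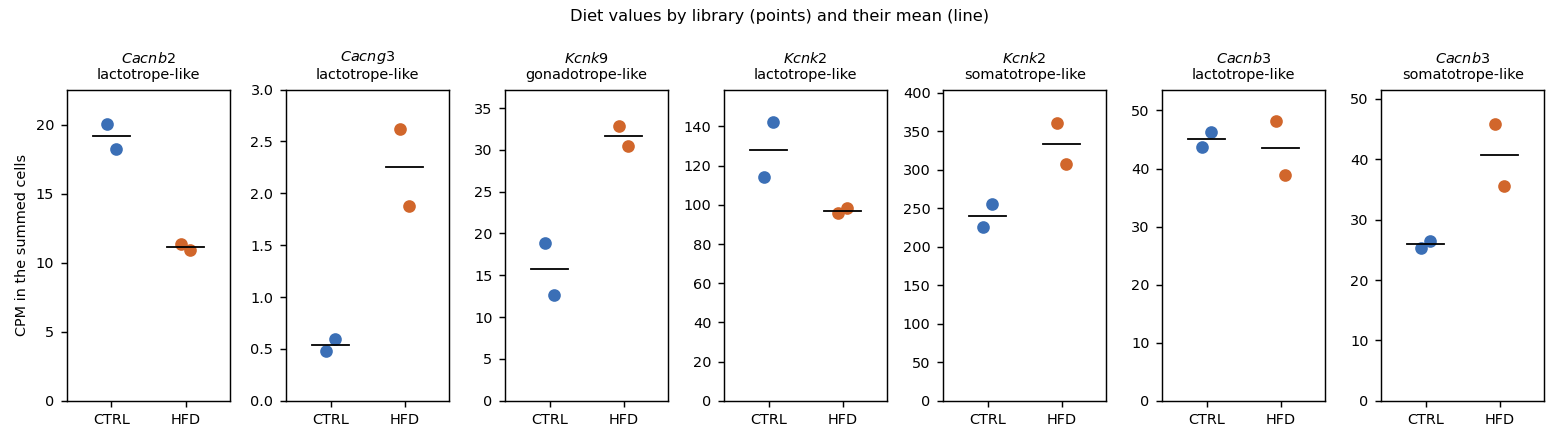
CPM per library (points) of Cacnb2, Cacng3, Kcnk9, Kcnk2 and Cacnb3 in the classes written above each panel, with CTRL and HFD side by side and lines at the mean of 2 libraries. Cacnb2 is lower and Cacng3 higher in both HFD libraries of lactotrope-like cells, and Kcnk9 is higher in both HFD libraries of gonadotrope-like cells. Kcnk2 lies in opposite order in lactotrope-like and somatotrope-like cells.

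In somatotrope-like cells none of 69 genes tested was called by edgeR (background 0.055% of 14534 genes). At an unadjusted p under 0.05 there were 18 (18.8% of all genes), of which 17 were higher after HFD (8.21% of all genes). DESeq2 called 6 (3.02% of all genes), namely Cacna1d, Cacnb3, Scn3a, Kcnj6 and Kcnmb4os2 as higher and Kcnj3 as lower. The log2 difference was above 0 for 49 of 69 genes, with a median of 0.23 against -0.00 over all genes. After TMM scaling 30 genes had both HFD libraries above both CTRL libraries and 4 had both below, 49.3% of those tested, against 52.6% of all genes in this class (25.9% above and 26.7% below). Without TMM scaling the median over all genes was itself 0.16 in this class and -0.13 in gonadotrope-like cells, and the median of the channel genes in somatotrope-like cells was 0.39.

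Cacnb3 had the smallest p among these genes, with 25.4, 26.5, 45.8 and 35.6 CPM in somatotrope-like cells. Both HFD libraries were higher (log2 0.49, SE 0.11, edgeR adjusted p 0.131). Of the fits that left out 1 library, it passed only without HFD 2, where HFD 1, the higher library, alone stood for HFD. Cacna1d had 121, 130, 246 and 157 CPM (log2 0.51, SE 0.17, adjusted p 0.193), with HFD 1 the highest. Cacna1h had 16.3, 21.7, 29.5 and 23.6 CPM (log2 0.32, SE 0.13, adjusted p 0.259), and the lowest HFD library was close to the highest CTRL library. The makeup of this class also differed between the diets. Its larger cluster held 861 and 790 of 1453 and 1943 cells in CTRL and 1989 and 2226 of 2413 and 2871 in HFD. Fitted alone, that cluster had 1 channel gene called, Cacna1h (log2 0.69, SE 0.13, adjusted p 0.0416, background 2.2%). It had 12.0, 13.7, 27.1 and 21.1 CPM there. The other cluster had 1 called, Scn3a (log2 1.00, SE 0.14, adjusted p 0.0323, background 0.154%). It had 12.3, 12.3, 31.8 and 25.3 CPM there. In both clusters most channel genes were higher after HFD, 45 of 63 and 39 of 62. Their median log2 differences were 0.21 and 0.12, against 0.006 and 0.002 over all genes tested. The share of all genes that were higher is not given. No fit without 1 library was run within single clusters. Hormone genes held 44.0% and 38.8% of the UMIs of somatotrope-like cells in CTRL and 34.9% and 37.9% in HFD, and immediate-early genes summed to 8519 and 12129 CPM in CTRL and 4978 and 5927 CPM in HFD. Their part in these differences was not tested.

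**Figure D4:**
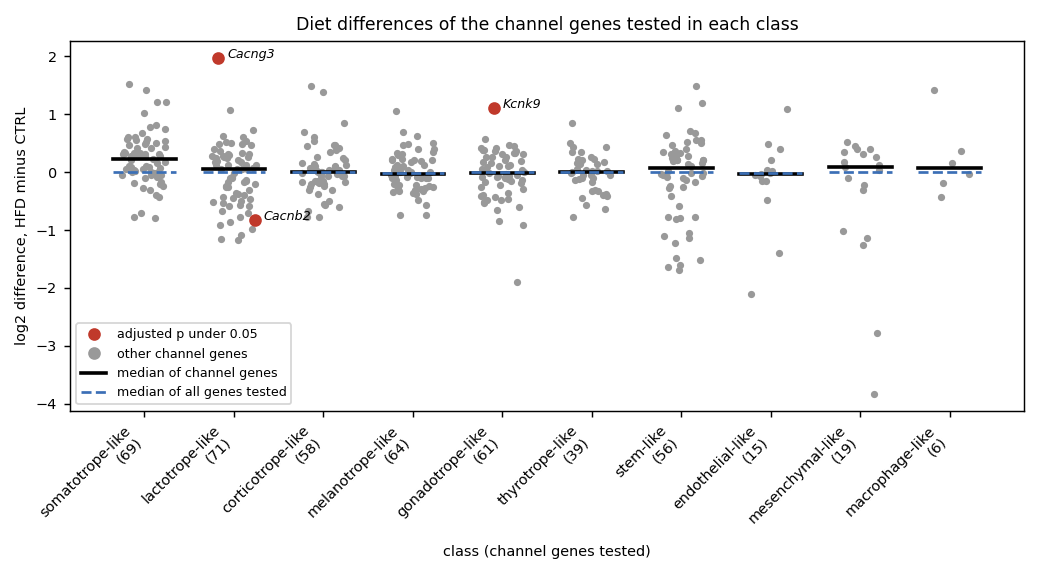
Log2 difference HFD minus CTRL of every channel gene that passed the low-count filter in each tested class (points) with the class median of these genes and of all genes tested. The median of somatotrope-like cells is 0.23 and those of the other classes lie between -0.03 and 0.09.

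Whether the diet difference itself differed between classes was tested as an interaction for 2 pairs of related classes. Between lactotrope-like and somatotrope-like cells 2 channel genes were called, against 0.96% of 15211 genes. Kcnk2, the leak channel gene (chr1:189207930-189402273), had 114 and 142 CPM in CTRL and 95.8 and 98.3 CPM in HFD lactotrope-like cells (log2 -0.45, SE 0.11, adjusted p 0.0744). In somatotrope-like cells it had 225 and 256 CPM in CTRL and 361 and 307 CPM in HFD (log2 0.31, SE 0.09, adjusted p 0.153). The diets did not overlap in either class and lay in opposite order. The difference of the log2 differences, somatotrope-like minus lactotrope-like, was 0.77 (SE 0.11, edgeR adjusted p 0.0320). It was lost without CTRL 2 (0.68, adjusted p 0.122) and without HFD 1 (0.63, adjusted p 0.125).

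Cacnb3 (chr15:98630840-98644529) had 43.8, 46.3, 48.2 and 38.9 CPM in lactotrope-like cells, where the diets overlapped, and 25.4, 26.5, 45.8 and 35.6 CPM in somatotrope-like cells, where they did not. Its difference of differences was 0.60 (SE 0.10, edgeR adjusted p 0.0382), and it was lost without any 1 of the 4 libraries (adjusted p 0.0651 to 0.176). The number of channel genes called in this pair was 7 with HFD 2 left out, 1 with CTRL 1 left out and 0 with either of the others left out. The share of all genes called in those fits is not given, so the counts do not speak to channel genes in particular. Without shared barcodes the values were 0.77 for Kcnk2 and 0.60 for Cacnb3, and both were called. Between corticotrope-like and melanotrope-like cells no channel gene was called (0.0367% of 13612 genes), and the smallest p was that of Scn2a (0.00220, adjusted p 0.387).

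In the other tested classes edgeR called none of the channel genes. The background of adjusted calls over all genes was 0.286% in corticotrope-like, 0.00777% in melanotrope-like, 0.374% in thyrotrope-like, 0.0% in stem-like, 0.0501% in endothelial-like, 0.0% in mesenchymal-like and 0.0451% in macrophage-like cells. At an unadjusted p under 0.05 there were 11 of 58 channel genes in corticotrope-like cells (10.2% of all genes), 13 of 56 in stem-like cells (9.67%), 6 of 64 in melanotrope-like cells (6.79%) and 3 of 39 in thyrotrope-like cells (7.17%). There were 3 of 15 in endothelial-like (3.33%), 4 of 19 in mesenchymal-like (5.0%) and 1 of 6 in macrophage-like cells (5.79%). DESeq2 called none of the channel genes in any of these classes. Of the genes to which it gave an adjusted p, it called 0.76% in corticotrope-like, 0.0622% in melanotrope-like, 0.415% in thyrotrope-like and 0.277% in stem-like cells. It called 0.0601% in endothelial-like, 0.0333% in mesenchymal-like and 0.0301% in macrophage-like cells. Such genes numbered 3376 of 9904 in thyrotrope-like cells and 10394 of 12591 in corticotrope-like cells, and the rest could not be called. Kcna5 in endothelial-like cells had 10.2, 7.89, 17.7 and 20.3 CPM (log2 1.10, adjusted p 1), with both HFD libraries above both CTRL libraries. Kcnmb4os2 had 24.5, 51.8, 81.2 and 71.7 CPM in melanotrope-like cells, with CTRL 1 the lowest. Kcnj10 had 11.8, 15.9, 52.9 and 20.4 CPM in macrophage-like cells, with HFD 1 apart from the rest. Kcns2 had 12 and 14 UMIs in CTRL and 0 and 2 UMIs in HFD mesenchymal-like cells (adjusted p 0.959).

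None of the 30 genes that stood above all other classes was called for diet in its leading class when whole classes were fitted. Over all genes 0.0% to 2.2% were called in the tested classes, and the absence of calls is near that share. The log2 difference of Kcnh8 in lactotrope-like cells was -0.09 (SE 0.09), that of Scn2a in melanotrope-like cells 0.19 (SE 0.16), that of Kcna4 in gonadotrope-like cells -0.04 (SE 0.17), that of Kcnk1 in stem-like cells 0.16 (SE 0.19) and that of Cacna2d3 in corticotrope-like cells -0.00 (SE 0.17). With 2 libraries a diet, a p that misses the threshold does not show that the diets were alike.

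Over the whole gland, 116 of the 129 genes were tested and none was called by edgeR (0.0108% of 18534 genes). At an unadjusted p under 0.05 there were 18 (10.8% of all genes), with 12 higher (5.42%) and 6 lower. DESeq2 called Kcnj3 and Kcna5 (1.3% of all genes), and 3 were called without HFD 2 (Kcnj3, Cacna1d and Cacna1h). In whole-gland sums, fewer cells of a class and less RNA per cell cannot be told apart. A list of 54 other genes of channel complexes and excitability gave 4 calls over the tested classes. All were in lactotrope-like cells, where 1.12% of all genes were called, and gonadotrope-like cells, where 2.2% were. In lactotrope-like cells 41 were tested, and Kcnip4, a partner of A-type potassium channels, fell (log2 -2.10, SE 0.34, adjusted p 0.0122) while Stac, an adaptor of L-type calcium channels, rose (log2 2.53, SE 0.46, adjusted p 0.0212). In gonadotrope-like cells 36 were tested, and 2 were called, both lower after HFD. One of them was the calcium pump gene Atp2b1 (log2 -0.55, SE 0.11, edgeR adjusted p 0.0449). Kcnip4 lost its call without CTRL 2 (adjusted p 0.110) and Stac without CTRL 2 (0.190) or HFD 1 (0.109). Atp2b1 lost its call without CTRL 2 (0.0820), HFD 1 (0.141) or HFD 2 (0.198). The median log2 difference of the list was -0.04 in lactotrope-like and -0.15 in gonadotrope-like cells, against 0.00 over all genes in each.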

How the data were processed

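The authors deposited raw UMI counts, as 1 gene-by-barcode matrix per library, with no normalization. Per the submitters' processing notes, Cell Ranger 6.1.2, Seurat 4.3 and the build mm10 were used, without stated roles. The 129 genes and the marker and gene lists were chosen with earlier results of these data known.

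A barcode was kept if it had 500 genes or more and no more than 20% of UMIs from mitochondrial genes, and 1540 putative doublets were removed by neighbours of simulated doublets. Cells were clustered (scanpy 1.11.5, 2000 variable genes without the channel genes, 30 components, Leiden resolution 0.8). A class could name a cluster when at least 3 of its markers qualified. Each had to be in at least 10% of the cluster's cells, at a log2 fold of at least 1 over all other cells. Where several classes qualified, the highest mean fold decided. A shallow cluster whose leading genes held no marker of that class stayed unnamed. The classes were rebuilt from the counts and may differ from the authors' own. Counts were summed per library and class. The main test was the quasi-likelihood F-test of edgeR 4.0.16 under R 4.3.3, with TMM scaling, filterByExpr and Benjamini-Hochberg adjustment over all genes of a fit. The interaction used the library as a block. CPM were computed from the sums without TMM scaling. DESeq2 1.42.0, no low-count filter, no TMM scaling, stricter cell filters, doublets kept, channel genes allowed in clustering, other CPM minimums, shared barcodes removed, single clusters, leave-one-out and a replicate block were tried. The script was tested on simulated data. Genes named were those called, the smallest p per class, up to 5 leading genes and the 3 with the highest CPM per class. Further genes were named after their values were seen, as family members or as values beside a result. Coordinates are from GENCODE vM21 on mm10. Values of some single genes are not reported here, and the counts include those genes.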

Additional observations from a re-analysis of the deposited data

Results flagged for a closer look

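The diet difference of Kcnk2 differed between somatotrope-like and lactotrope-like cells by 0.77 on the log2 scale in the interaction test, with HFD above CTRL in the former and below it in the latter. That of Cacnb3 differed by 0.60, with HFD above CTRL in somatotrope-like cells and overlapping diets in lactotrope-like cells. Both were seen in sums of 2 libraries a diet. The call of Kcnk2 was lost without CTRL 2 or without HFD 1, and that of Cacnb3 was lost without any 1 of the 4 libraries.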

How the results depend on the processing

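The 3 diet calls over the tested classes became 8 with DESeq2, 30 with no low-count filter, 6 with no TMM scaling, 12 with the replicate block, 8 with a crossed pairing block and 1 to 21 when 1 library was left out. In the whole gland the count of 0 became 2 with DESeq2 and ran from 0 to 3 when 1 library was left out. The 2 interaction calls ran from 0 to 7 when 1 library was left out. Every share of all genes given for DESeq2 is over the genes to which it gave an adjusted p. The shares of all genes called are given for the main and DESeq2 fits only. Counts under the other settings therefore do not speak to channel genes in particular. The cause of these changes was not tested, and fits without 1 library also rest on fewer libraries. The 30 genes that stood above all other classes stayed within 1.5 times that count under every alternative run. Deviations of libraries with the same number correlated at 0.32 in stem-like, 0.31 in endothelial-like and 0.23 in mesenchymal-like cells, and at -0.17 in somatotrope-like to 0.06 in the other tested classes. With 2 libraries a diet, and no label that says what the number marks, the numbers were not taken as a pairing. The crossed pairing and the alternatives on TMM scaling, shared barcodes, hormone genes and single clusters were chosen after seeing the data. Of the single-gene log2 differences under alternatives, 123 kept their direction and side of the threshold, 11 passed it newly, 6 no longer passed and none changed direction. Shares of cells with a UMI moved with the thinning depth in all 60 values computed. Kcnq1 in endothelial-like cells was 23.3 CPM and Kcnk13 in macrophage-like cells 18.1 CPM with doublets kept. Genes of few UMIs, such as Cacng3 and Kcns2, and the classes of HFD 1 with shallow cells carry the least depth, and a difference missed there may lie below what these counts can show.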
